A study of Mus musculus with 16 samples.

Results

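The response of wild-type lung to ovalbumin challenge was read from 8 arrays, the 4 titled as challenged wild type and the 4 titled as wild type with no challenge, out of 16 arrays in all. All 8 mice were female C57BL/6N, wild type for Cox4i2 and 17 weeks old, and each array held total RNA from part of the lung of a separate mouse. The treatment text names an intraperitoneal injection of 10 µg ovalbumin in 2 mg alum, then 3 exposures of 30 min each to a 1% ovalbumin aerosol. The 4 untreated mice carry the treatment label "none", and the labels do not say whether they were injected, exposed to aerosol without ovalbumin or handled in the same way. The hour of collection is not given either, so differences of handling or of collection time cannot be told apart from challenge. The other 8 arrays, from mice lacking Cox4i2, entered the model for the spread between arrays and 1 test at the end.

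Ovalbumin with alum primes T helper 2 cells, and inhaled ovalbumin then recalls them to the airway, which makes this a common mouse model of allergic asthma. Interleukin-4 and interleukin-13 act through the transcription factor STAT6 on airway epithelium, where club cells turn to mucus secretion, and on macrophages, which take up an alternatively activated state. Eotaxins, chemokines of the CCL11 and CCL24 type, draw eosinophils into the tissue. Glucocorticoids oppose much of this response and act through their receptor on a set of widely shared target genes.

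Values are intensities, the brightness of beads that carry 1 gene probe each, after the authors' background subtraction and normalisation, so dim probes scatter around 0. Signals over 16.8 were taken as above background. Differences were tested on log2 values with limma's moderated test, a linear model with a spread shared among genes, and adjusted by Benjamini-Hochberg over 11962 genes or unnamed probes, with a threshold of 0.05. Because a constant of 40.8 is in effect added to each intensity before the logarithm, log2 differences and folds of dim genes are understated. Rank correlations between arrays were 0.972 to 0.986 among untreated and 0.957 to 0.983 among challenged lungs. The number of arrays limits the precision of every value below.

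Lung identity and signals of other tissue were checked first. The lung markers were present on all 8 arrays, with Sftpc, surfactant protein C of alveolar type 2 cells, at 20790 to 25847 untreated and 28722 to 32045 challenged. Scgb1a1, the main secretoglobin of club cells, lay between 38908 and 45524 in both groups. Skeletal muscle and squamous epithelium, in contrast, were seen on challenged arrays 1 and 3. Acta1, skeletal muscle actin, stood at 14616, -3.07, 16798 and 148 on challenged arrays 1 to 4, against -13.1 to 0.598 on untreated arrays. Krt13, a keratin of stratified squamous epithelium, stood at 3965, -5.64, 3988 and 55.3 on those arrays, against -10.9 to 4.12. Array 2 was therefore at background for both genes, array 4 carried a low signal of both, and arrays 1 and 3 carried a high one.

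The same split was seen in whole marker lists. The 22 measured skeletal muscle markers summed to 1573 to 2698 on untreated arrays and to 61695, 1337, 75234 and 2177 on challenged arrays 1 to 4. The 23 measured squamous markers summed to 7608 to 11642 untreated and to 34219, 12692, 34116 and 13361 challenged. Ckm, muscle creatine kinase, was at 938 and 1175 on challenged arrays 1 and 3 and at 3.63 and 5.21 on arrays 2 and 4. Lor, loricrin of the cornified layer, was at 8748 and 9969 on arrays 1 and 3 and at 20.2 and 260 on arrays 2 and 4. The fat hormone gene Adipoq was at 2059 and 1823 on arrays 1 and 3, but at 30.0 and 18.1 on arrays 2 and 4, below the 101 to 235 of untreated lungs. Glycam1, a mucin of lymph node vessels, was at 377 and 101 on arrays 1 and 3 against at most 25.5 on the other 6 arrays. The B cell marker Cr2 of lymph node follicles was above background on 0 of 16 arrays, so it could not separate them. Cxcl13, a chemokine of the same marker list, was at 1156 and 887 on arrays 1 and 3 and at 334 and 321 on arrays 2 and 4. Relative to the untreated mean, the mean log2 value of the 9 measured lymph node and thymus markers was 0.49, -0.06, 0.30 and -0.14 on challenged arrays 1 to 4. The counts over all features, the counts of the gene lists and the largest changes are therefore also given without 3 arrays, challenged wild-type arrays 1 and 3 and the 1 mutant array with the same signals, which leaves challenged wild-type arrays 2 and 4.

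**Figure D1:**
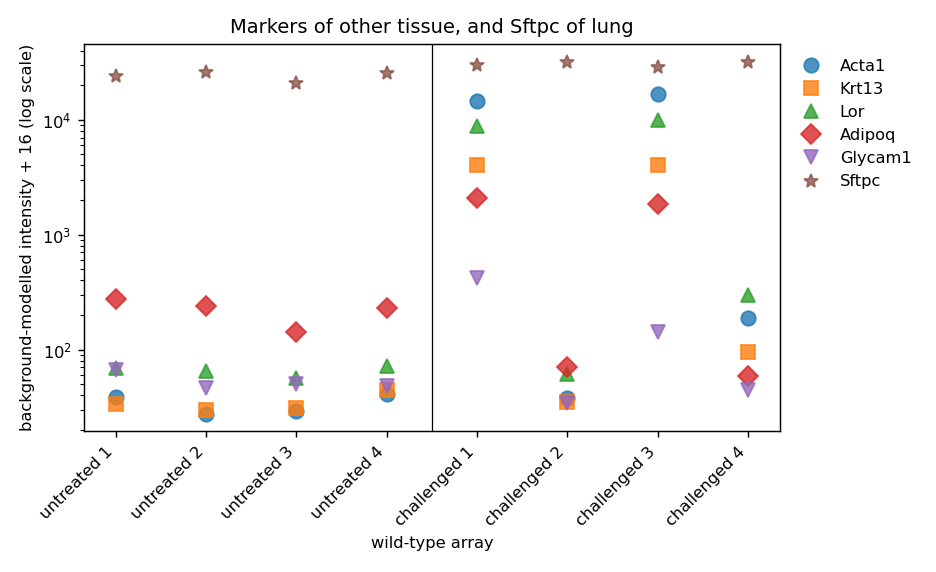
Level of each marker on the 8 wild-type arrays, as background-modelled intensity plus 16 on a log scale, 1 point per array. Acta1, Krt13, Lor, Adipoq and Glycam1 are high on challenged arrays 1 and 3, while the lung gene Sftpc lies between 20790 and 32045 on all 8 arrays.

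Challenge changed 2108 of 11962 features (17.6%), of which 980 rose (8.19%) and 1128 fell (9.43%). A change of at least 2-fold was reached by 120 of the rises (1% of all features) and 87 of the falls (0.727%). The median log2 difference over all features was -0.006. Without the 3 arrays 2391 features passed (20%), 1268 higher (10.6%) and 1123 lower (9.39%). Of the features that passed, 1589 did so in both fits and in the same direction, 519 only with all arrays and 802 only without the 3. With only the 8 wild-type arrays in the fit 1220 features passed, and without untreated array 2 the rises numbered 639. Of the 2-fold rises 109 of 120 passed without the 3 arrays, and of the 2-fold falls 81 of 87 did. The 4 challenged and 4 untreated values did not overlap in 2141 features (17.9%), with challenged arrays higher in 966 (8.08%) and lower in 1175 (9.82%).

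**Figure D2:**
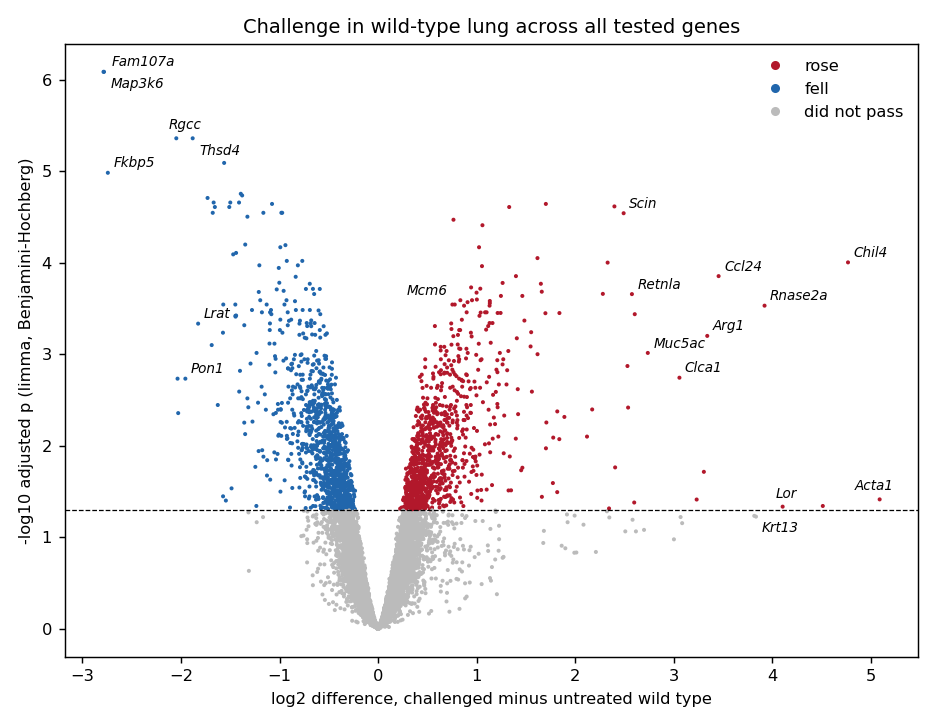
Log2 difference between challenged and untreated wild-type lung (x axis) against the -log10 adjusted p (y axis), 1 point per tested feature, with the dashed line at an adjusted p of 0.05. The 980 rises are red, the 1128 falls are blue, and Chil4 at 4.77 and Map3k6 at -2.79 stand at either end of the genes named as largest rises and falls.

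The 12 largest rises that also passed without the 3 arrays, with groups that did not overlap, were led by Chil4, a chitinase-like protein secreted by epithelium and macrophages. Its intensity was 74.4, -3.99, 71.1 and 37.7 on untreated arrays 1 to 4, and 2846, 4274, 700 and 2188 on challenged arrays 1 to 4. All challenged arrays lay far above all untreated ones, array 3 least so. The log2 difference was 4.77 (SE 0.58, adjusted p = 9.86e-05), and 5.31 without the 3 arrays.

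Ccl24, eotaxin-2, an attractant of eosinophils, was at -14.4, -16.2, -2.23 and 17.1 untreated and at 211, 492, 150 and 784 challenged. Only 1 untreated array reached background, and all challenged arrays were clear of it. The log2 difference was 3.46 (SE 0.44, adjusted p = 0.000139), and 4.25 without the 3 arrays. Arg1, arginase 1 of alternatively activated macrophages, was at 37.4, 37.6, 278 and 245 untreated and at 1352, 1885, 744 and 2758 challenged. Untreated arrays 3 and 4 were higher than 1 and 2, yet the lowest challenged array was above both. Its log2 difference was 3.34 (SE 0.53, adjusted p = 0.000627), and 3.92 without the 3 arrays. Muc5ac, the gel-forming mucin of goblet cells, was at 82.7, 13.9, 89.6 and 59.6 untreated and at 290, 1668, 274 and 942 challenged. It rose by 2.74 (SE 0.45, adjusted p = 0.000963), and arrays 1 and 3 held the smaller rises, so that the difference without the 3 arrays was 3.74.

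Rnase2a, of the eosinophil-associated ribonuclease family, was at 120, 52.7, 609 and 861 untreated and at 3315, 5569, 3434 and 7070 challenged. Its log2 difference was 3.92 (SE 0.55, limma adjusted p = 0.000293), and 4.36 without the 3 arrays. It belongs to a family of near-identical genes, and its probe may read several of them. Clca1, a secreted protein of mucous cells, was at 3709, 371, 4873 and 3299 untreated and at 16599, 29449, 12861 and 19209 challenged, a log2 difference of 3.06 (SE 0.56), and 3.41 without the 3 arrays. Retnla, a resistin-like protein of alternatively activated macrophages and epithelium, was at 6122, 2574, 13595 and 11705 untreated and at 42573, 44008, 40697 and 42573 challenged, a log2 difference of 2.58 (SE 0.35), and 2.60 without the 3 arrays. The challenged values of Retnla are near the top of the table's range, which ends at 48649, so this difference may be compressed. Saa3, an acute phase apolipoprotein, rose by 2.54, Scin, an actin-severing protein, by 2.49, and Fxyd4, a regulator of the sodium pump, by 2.60. Without the 3 arrays these 3 rose by 3.52, 2.58 and 3.01. Lce3b was among the 12, rising by 3.31, but it is a gene of cornified epithelium at 1464 and 1299 on challenged arrays 1 and 3 and 16.5 and 73.6 on arrays 2 and 4. Lce3b was below background on all untreated arrays and, at 16.5, on challenged array 2 as well. Its lack of overlap therefore rests in part on values below background. It entered the test through signal on other arrays, so its rise partly follows from how genes were kept for testing. The challenged mean was at least 5.88-fold higher than the background limit, mainly through arrays 1 and 3, which carried the squamous signal.

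The 12 largest falls, chosen in the same way, were led by a kinase gene. Map3k6, a stress kinase, was at 927, 953, 750 and 1468 untreated and at 80.7, 87.4, 180 and 107 challenged, a log2 difference of -2.79 (SE 0.20, adjusted p = 8.15e-07). Fam107a, an actin-associated protein, was at 389, 480, 523 and 892 untreated and at 54.1, 57.9, 38.0 and 30.7 challenged, a difference of -2.78 (SE 0.19). Fkbp5, which holds the glucocorticoid receptor in a state of low hormone affinity, was at 611, 692, 858 and 1717 untreated and at 85.0, 91.1, 94.5 and 127 challenged, a difference of -2.74 (SE 0.25). No challenged array came near the lowest untreated array for these genes, and without the 3 arrays their differences were -2.91, -2.80 and -2.65. Rgcc, a regulator of the cell cycle, fell by 2.05, Errfi1, a feedback inhibitor of the epidermal growth factor receptor, fell by 2.03, and Pon1, a paraoxonase, fell by 1.96. The other 6 were Thsd4, Lrat, Cdkn1a, Npr3, Sphk1 and Pxdc1, with log2 differences of -1.88 to -1.66.

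**Figure D3:**
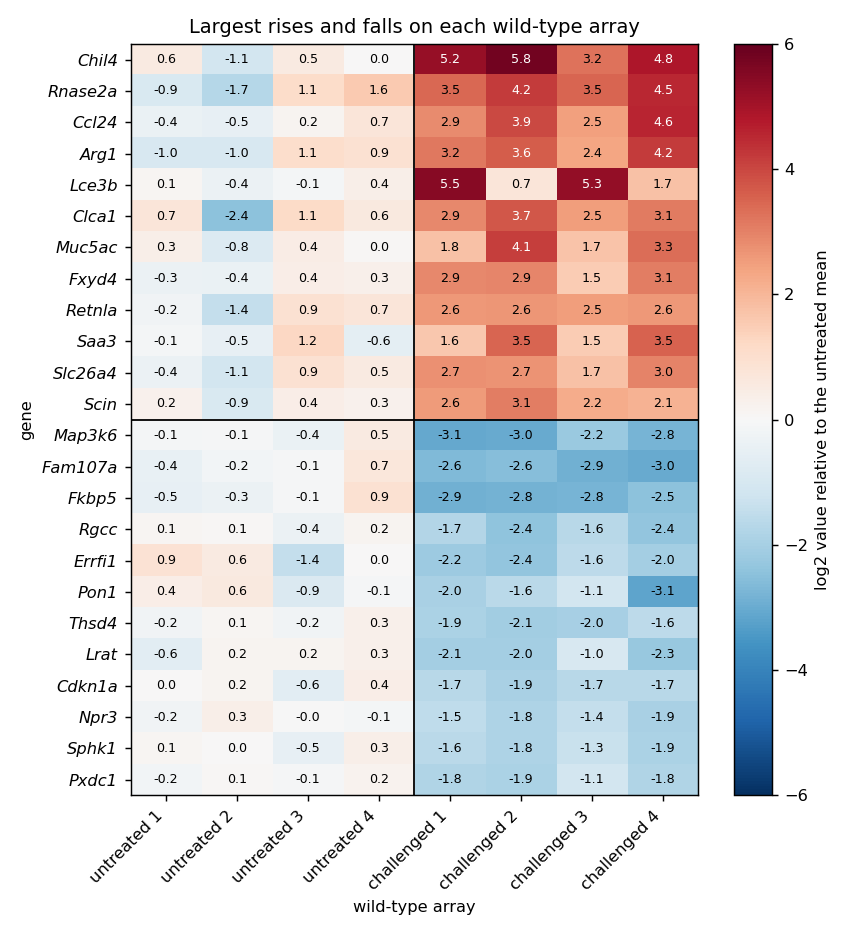
Log2 value of the 12 largest rises and 12 largest falls on each wild-type array, with the average of the 4 untreated arrays set to 0 (colour and printed value). Rises run from 4.77 for Chil4 to 2.49 for Scin and falls from -2.79 for Map3k6 to -1.66 for Pxdc1.

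The size of the response differed between the challenged arrays. Of the 980 features that rose with all arrays in the fit, the challenged array nearest to the untreated level was array 3 for 535, array 1 for 190, array 2 for 158 and array 4 for 97. Of the 1128 that fell, it was array 3 for 516, array 2 for 229, array 4 for 192 and array 1 for 191. Array 3 was thus the nearest most often in both directions. Array 3 carries the muscle and squamous signals, as does array 1, and the part of that tissue in these sizes was not tested.

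Chemokines that act on eosinophils and monocytes were higher after challenge. Of 15 measured members of this list 7 rose and 1 fell, against 8.19% and 9.43% over all features, and their median log2 difference was 0.73, against -0.006. Without the 3 arrays 8 rose and 2 fell (median 1.05). Ccl11, eotaxin-1, was at 99.0, 86.0, 153 and 189 untreated and at 585, 445, 625 and 599 challenged, a log2 difference of 1.84 (SE 0.27). The monocyte attractants Ccl7, Ccl8 and Ccl12 rose by 2.28, 2.12 and 1.70, of which Ccl8 was named after its value was seen. Ccl2 was not above background on any untreated array and was at least 1.37-fold higher. It entered the test through signal on other arrays, so its rise partly follows from that filter. The fall was Ccl21a, a T cell attractant made by lymphatic vessels, with a difference of -1.04. Of 13 measured chemokines of the CXC and other classes 1 rose with all arrays, a share near that over all features. It was Pf4 of platelets and megakaryocytes, by 0.47, and Pf4 did not pass without the 3 arrays, where 1 other member rose. Cxcl1, a neutrophil attractant, was at 25.8 to 159 untreated and 190 to 251 challenged, with an adjusted p of 0.14.

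The type 2 cytokines themselves were near the limit of detection. Il4 was at -7.10 to 9.91 on untreated arrays, all below background, and at 11.9, 14.1, 43.0 and 67.8 challenged, above background on 2 arrays. It passed the test (adjusted p = 0.0142) and was at least 1.24-fold higher. Since no untreated wild-type array was above background, Il4 entered the test through signal on other arrays, and its call is not independent of that filter. Il13 was at 2.22 to 20.7 untreated and 10.8 to 28.0 challenged, with an adjusted p of 0.213, so a difference was not detectable at this signal. Il33, an alarmin of epithelium, rose by 0.83 from 1474 ± 338 to 2661 ± 686 (SD, n = 4 each). Il4 and Il33 were the 2 of 13 measured members of the list that passed, and 0 fell, with 2 and 0 without the 3 arrays. Of 6 measured members of the eosinophil list 2 rose, Rnase2a and the lipoxygenase Alox15, the latter by 1.28, and 3 rose without the 3 arrays. Whether these genes mark eosinophils alone was not tested. Of 5 measured mast cell and basophil genes 0 rose, and Gata2, a transcription factor of these cells and of endothelium, fell by 0.64, with 0 and 1 without the 3 arrays. In RNA from whole lung, fewer cells of a type and less RNA per cell cannot be told apart, here and below.

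Genes of alternatively activated macrophages rose in 10 of 20 measured members and fell in 2 (median 0.69), and in 8 and 1 without the 3 arrays. The falls with all arrays were at a share near that over all features. The measured members include 2 above background on no untreated array, which entered the test through signal on other arrays. Beside Ccl24, Arg1 and Retnla, the lectin receptors Clec10a and Mgl2 rose by 1.04 and 1.16. Clec10a was at 134 to 175 untreated and 321 to 447 challenged. Socs2, an inhibitor of cytokine signalling in the same list, fell by 0.84 from 3354 to 4498 untreated to 2093 to 2412 challenged. Of 4 measured chitinases and chitinase-like genes Chil4 and Chia1 rose, and Chia1, the acidic chitinase, went from 1979 to 4985 up to 10567 to 15392, a difference of 2.33, and 2 members rose without the 3 arrays as well. Chil3 and Chil1 were already bright in untreated lungs, at 14031 to 34529 and 19513 to 30106, and did not pass (limma adjusted p = 0.498 and 0.185). Other probes of Chil3 differed by 0.47 and 1.22 and did not pass either (limma adjusted p = 0.30 and 0.094 with every probe tested). Of 21 measured genes of alveolar macrophages and lipid handling 0 rose and 3 fell, Mertk, a receptor for apoptotic cells, by 1.23, Car4, a carbonic anhydrase that lung capillaries also express, by 0.65 and the cholesterol exporter Abcg1 by 0.68. Without the 3 arrays 0 rose and 6 fell (median -0.21).

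The promoter of Retnla is shown because this gene is a textbook target of STAT6, with capitals at a match to TTCNNNNGAA, the spaced palindrome such factors bind. The sequence is the 250 bases before the start site from RefSeq, build GRCm38.p6, chr16:48842359-48842608, plus strand, and the match begins 145 bases before the start.
Retnla: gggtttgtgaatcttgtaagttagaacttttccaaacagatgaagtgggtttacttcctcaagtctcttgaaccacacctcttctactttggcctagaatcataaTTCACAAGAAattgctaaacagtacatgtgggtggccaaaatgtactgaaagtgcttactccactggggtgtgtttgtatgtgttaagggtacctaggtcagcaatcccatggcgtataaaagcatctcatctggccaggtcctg
Such a match, read on both strands of 300-base windows (250 before to 50 after the start), was found in 600 of 8879 tested genes with a window (6.76%). It was found in 3 of 13 alternatively activated macrophage genes with a window (23.1%), namely Retnla, Pdcd1lg2 and Ccl17. The last 2 were named after their values were seen, and Ccl17 did not pass the challenge test (adjusted p = 0.417). The share was 4 of 24 (16.7%) in the glucocorticoid list and 2 of 17 (11.8%) in the mitosis list. The match was found in 0 of 15 goblet cell genes with a window, and in 7.13% of all genes that rose and 6.73% of all genes that fell. The window of Chil4 held no match.

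The goblet cell and mucus programme rose in 11 of 22 measured members, and 1 fell (median 0.58), with 13 and 0 without the 3 arrays. Ern2, a stress sensor of mucus-secreting cells, was at 138, 76.7, 92.1 and 134 untreated and at 308, 633, 293 and 564 challenged, a difference of 1.65 (SE 0.21). Foxa3, a transcription factor of goblet cells, rose by 1.13, and Bpifb1, a secreted airway defence protein, by 1.21. Pla2g4c, a phospholipase, was below background on all untreated arrays and was at least 1.32-fold higher. Its rise partly follows from the filter, which it passed through signal on other arrays. The member that fell was Muc1, a membrane-bound mucin named after its value was seen, by 0.39, and it did not pass without the 3 arrays. Other probes of Muc1 differed by -0.08, -0.32 and -0.27 and did not pass (limma adjusted p = 0.66, 0.20 and 0.19 with every probe tested). For each of Muc5ac, Ern2 and Foxa3 the values on challenged arrays 2 and 4 were above those on arrays 1 and 3.

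Ion transport genes of the airway epithelium moved in both directions, with 5 of 20 measured members higher and 6 lower (median -0.09), and 6 higher and 5 lower without the 3 arrays. Slc26a4, pendrin, an anion exchanger, went from 472 to 2063 untreated to 3662 to 8573 challenged, a difference of 2.53 (SE 0.44), and Fxyd4 went from 24.3 to 70.8 to 203 to 676. Among the falls were subunits of the epithelial sodium channel, Scnn1a by 0.84 and Scnn1g by 0.59. Scnn1g was at 2249 to 2947 untreated and 1630 to 1862 challenged, with no overlap. Atp1b1, a subunit of the sodium pump, fell by 0.56. Of 26 measured genes of protein folding in the endoplasmic reticulum 6 rose and 2 fell, and 3 rose and 2 fell without the 3 arrays. Fkbp11, a folding enzyme of secretory cells, rose by 0.90 and Sec11c, a signal peptidase subunit, by 0.82, while Hspa5, the chaperone BiP, rose by 0.48 and missed the threshold without the 3 arrays (adjusted p = 0.0525).

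Listed genes of cell division mostly rose, in lists chosen with earlier results of these data known. Of 25 measured DNA replication genes 18 rose and 0 fell (median 0.59), and without the 3 arrays 23 rose (median 0.79). Of 20 measured mitosis genes 15 rose and 0 fell (median 0.78), and without the 3 arrays 16 rose (median 1.22). With only the 8 wild-type arrays in the fit 9 mitosis genes rose. Uhrf1, which couples replication to DNA methylation, was at 309, 273, 360 and 335 untreated and at 813, 1185, 659 and 1265 challenged, a difference of 1.46 (SE 0.20). Mcm5 and Mcm6, subunits of the replicative helicase, rose by 0.95 (SE 0.15) and 0.83 (SE 0.11). Mcm5 was at 319, 286, 339 and 297 untreated and at 528, 753, 518 and 792 challenged. Cdc20, an activator of the anaphase-promoting complex, was at 84.2, 99.8, 223 and 132 untreated and at 267, 629, 224 and 714 challenged, so untreated array 3 came level with challenged array 3. Birc5, survivin, rose by 1.17 and Cenpa, the centromeric histone, by 0.90. The mean log2 value of the mitosis list on challenged arrays 1 to 4 was 0.49, 1.07, 0.40 and 1.24 above the untreated mean, and untreated arrays ranged from -0.21 to 0.37.

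Promoters of both helicase genes are shown because replication genes are textbook targets of E2F factors, with capitals at matches to TTTGGCGC or TTTCCCGC, read on both strands. Both are the 250 bases before the start site from RefSeq, build GRCm38.p6, Mcm5 at chr8:75109259-75109508 on the plus strand and Mcm6 at chr1:128359706-128359955 on the minus strand. The first match begins 149 bases before the start of Mcm5 and 110 before that of Mcm6.
Mcm5: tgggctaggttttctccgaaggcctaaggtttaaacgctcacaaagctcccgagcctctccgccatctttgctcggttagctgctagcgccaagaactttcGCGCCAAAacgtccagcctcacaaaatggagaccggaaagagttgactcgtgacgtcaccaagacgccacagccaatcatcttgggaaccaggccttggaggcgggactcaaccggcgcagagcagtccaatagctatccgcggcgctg
Mcm6: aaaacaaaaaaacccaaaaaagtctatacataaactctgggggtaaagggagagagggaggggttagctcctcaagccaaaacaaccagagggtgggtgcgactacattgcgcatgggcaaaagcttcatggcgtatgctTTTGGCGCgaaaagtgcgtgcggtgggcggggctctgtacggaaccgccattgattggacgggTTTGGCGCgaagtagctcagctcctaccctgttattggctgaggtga
A match was found in 6 of 23 measured DNA replication genes with a window (26.1%), against 255 of 8879 tested genes (2.87%). It was found in 0 of 17 mitosis genes with a window.

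**Figure D4:**
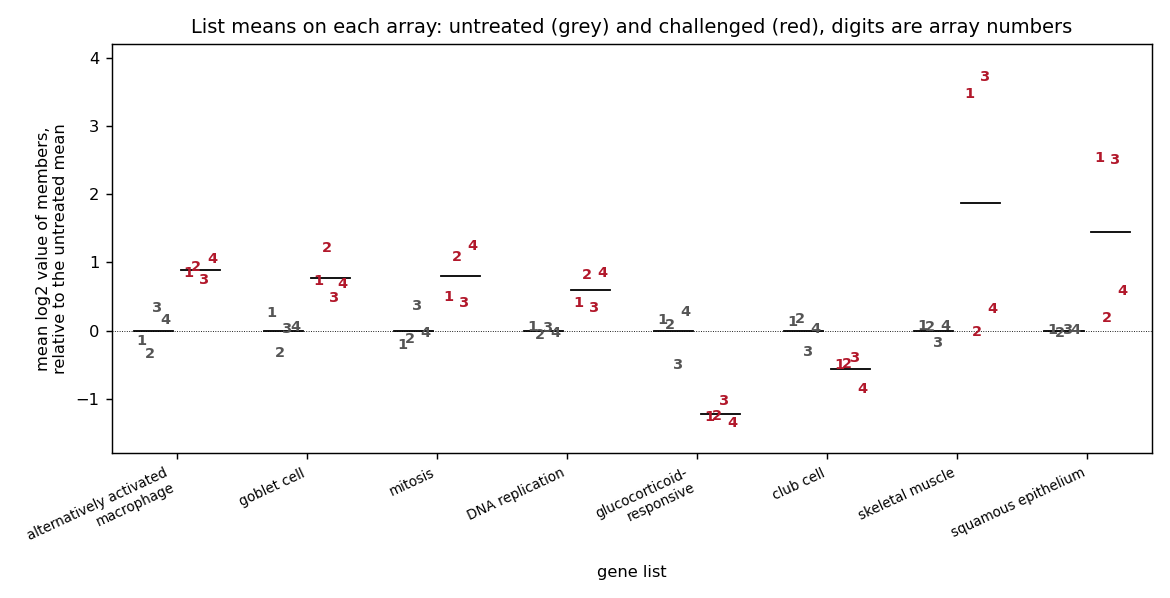
Mean log2 value of the measured members of 8 gene lists on each wild-type array, relative to the untreated mean, where digits are array numbers and bars are group means. The skeletal muscle and squamous lists are high on challenged arrays 1 and 3, the mitosis list is at 0.49 and 0.40 on arrays 1 and 3 and at 1.07 and 1.24 on arrays 2 and 4, and the glucocorticoid list is below all untreated arrays on all 4 challenged arrays.

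Lymphocyte genes rose in part. Of 14 measured B cell genes 6 rose and 0 fell (median 0.60), and 4 rose without the 3 arrays (median 0.17). Cd79b, a chain of the B cell receptor complex, was at 264, 201, 161 and 169 untreated and at 864, 427, 607 and 522 challenged, a difference of 1.41, and 1.12 without the 3 arrays. The summed B cell signal was 1491 to 2110 untreated and 4513, 2389, 3275 and 2866 challenged, highest on arrays 1 and 3, where Glycam1 of lymph node vessels was also high, and the part of lymphoid tissue in this difference was not tested. Fcer2a, the low-affinity receptor for immunoglobulin E, rose by 0.94 and had higher values on arrays 2 and 4, at 177 and 211, than on arrays 1 and 3, at 164 and 131. Of 23 measured T cell genes 7 rose and 0 fell (median 0.24), while 5 rose and 2 fell without the 3 arrays (median 0.25) and 4 rose with only the 8 wild-type arrays in the fit. The 7 included Bcl11b by 1.12, Cd27 by 0.70 and Cd3d of the T cell receptor complex by 0.62. Other probes of Cd27 differed by 0.14 and 0.18 and did not pass (limma adjusted p = 0.46 and 0.53 with every probe tested). Of 12 measured plasma cell and immunoglobulin transport genes 3 rose and 1 fell, with 2 and 1 without the 3 arrays. The mean log2 value of this list on challenged arrays 1 to 4 was 1.04, 0.44, 0.25 and 0.0002 above the untreated mean. Untreated arrays ranged from -0.22 to 0.15. Pigr, which carries immunoglobulin A across epithelium, rose by 1.16, and by 1.87 without the 3 arrays. Unlike the list mean, Pigr was highest on challenged arrays 2 and 4.

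Interferon-stimulated genes rose in 5 of 23 measured members and 0 fell (median 0.36), with 8 and 0 without the 3 arrays, and 10 rose without untreated array 3. Ifi27l2a went from 1155 to 1694 untreated to 2907 to 3377 challenged, a difference of 1.10, and Bst2, a tether of budding virus, rose by 0.94. Among 35 measured proteasome subunits 5 rose and 1 fell (median 0.01), with 6 and 2 without the 3 arrays, and the rises included the immunoproteasome subunits Psmb8, Psmb9 and Psmb10, at 0.52, 0.74 and 0.70. Psmb8 did not pass without the 3 arrays. Of 19 measured genes of antigen presentation on major histocompatibility complex class II 3 rose, led by the transactivator Ciita at 0.72, and 0 fell, with 5 and 0 without the 3 arrays. Complement genes rose in 4 of 13 and fell in 1, with C1qa at 0.86 and Cfb at 1.01, and the counts were 3 and 1 without the 3 arrays. Of 15 measured neutrophil genes 0 rose and 2 fell, Fpr2, a formyl peptide receptor, by 1.63 and Il1r2, a decoy receptor, by 1.25. Il1r2 missed the threshold without the 3 arrays (adjusted p = 0.0558), while 3 others rose there, among them Retnlg at 1.70. Retnlg was at 1233 on untreated array 1 and 199 to 332 on untreated arrays 2 to 4.

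Listed targets of the glucocorticoid receptor mostly fell, in a list chosen with earlier results of these data known. Of 25 measured members 18 fell and 0 rose (median -1.16), and 13 fell and 0 rose without the 3 arrays (median -1.28). Beside Map3k6, Fam107a and Fkbp5, the cell cycle inhibitor Cdkn1a was at 3482, 3848, 2172 and 4458 untreated and at 1046, 847, 1045 and 1034 challenged, a difference of -1.73 (SE 0.17). Klf9, a transcription factor, was at 7449, 7587, 4533 and 7973 untreated and at 2556, 2239, 3136 and 1849 challenged, a difference of -1.47 (SE 0.18). Untreated array 3 was the lowest of its group for both genes, and the list mean on that array was -0.51 against 0.09 to 0.27 on the other 3. On challenged arrays 1 to 4 the list mean was -1.27, -1.26, -1.04 and -1.35.

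Sgk1, a kinase that activates the epithelial sodium channel, was singled out after its values were seen, because it was the only tested gene with a promoter window that held the palindrome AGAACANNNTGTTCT of the glucocorticoid receptor, read on both strands, 1 of 8879 (0.0113%). The match lies in 1 of its 6 windows. It was at 7337, 6587, 7449 and 6122 untreated and at 3648, 3854, 3470 and 2543 challenged, a difference of -1.03 (SE 0.14, adjusted p = 0.000195). The 250 bases before that start site are shown with that palindrome in capitals (RefSeq, build GRCm38.p6, chr10:21993640-21993889, plus strand, the match beginning 189 bases before the start).
Sgk1: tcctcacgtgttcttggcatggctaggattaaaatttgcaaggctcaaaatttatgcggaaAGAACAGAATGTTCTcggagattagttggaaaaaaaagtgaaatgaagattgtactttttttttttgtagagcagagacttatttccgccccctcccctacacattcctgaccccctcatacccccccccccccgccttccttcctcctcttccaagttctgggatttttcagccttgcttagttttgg
The receptor acts largely through distant elements, which these windows do not cover.

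Clock genes and early response genes passed in small numbers. Of 17 measured circadian genes 1 rose and 4 fell (median -0.20), with Rora, a nuclear receptor of the clock, lower by a difference of -0.72 and the repressor Bhlhe40 higher by 0.69. Without the 3 arrays 1 clock gene rose and 2 fell. Of 21 measured immediate early and heat shock genes 1 rose and 2 fell (median -0.10), and 2 rose and 1 fell without the 3 arrays. These falls, and the rises without the 3 arrays, were at shares near those over all features (9.43% and 10.6%). Klf6 was the fall of smallest p, from 2493 to 3434 untreated to 1626 to 2002 challenged. Fosb fell by 1.24, but it did not pass without the 3 arrays.

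Listed club cell genes fell more often than they rose. Of 28 measured members of the secretoglobin and club cell list 14 fell and 1 rose (median -0.48), and without the 3 arrays 15 fell and 1 rose (median -0.60). Cyp4b1, a cytochrome P450, was at 2024, 2179, 1844 and 2074 untreated and at 942, 938, 1281 and 878 challenged, a difference of -0.99 (SE 0.15). Selenbp1, a methanethiol oxidase, was at 8411, 10263, 8440 and 10338 untreated and at 3449, 2875, 4427 and 2522 challenged, a difference of -1.51 (SE 0.16). Hp, haptoglobin, fell by 1.16 and Cyp2b10 fell by 1.28. Another probe of Cyp2b10 differed by only -0.20 and did not pass (limma adjusted p = 0.40 with every probe tested). Cyp2b10 and Lrat stand among the falls here, and Cyp2b10 is also on the glucocorticoid list. Scgb1a1 itself had a log2 difference of -0.03 (SE 0.08, adjusted p = 0.846), and at these levels it is at the top of the table's range.

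Other epithelial lists held fewer calls. Of 18 measured alveolar type 1 genes 5 fell and 0 rose (median -0.22), with Cldn18, a lung claudin, at 5039 to 6797 untreated and 3542 to 4249 challenged, a difference of -0.58, and 6 fell without the 3 arrays. Of 28 measured alveolar type 2 genes 6 fell and 2 rose (median -0.01), with 8 and 4 without the 3 arrays. The rises with all arrays were at a share near that over all features. Abca3, the lipid transporter of surfactant bodies, fell by 0.69, and Sftpb, surfactant protein B, fell by 0.46. Sftpc rose by 0.36. Of 27 measured motile cilium genes 5 fell and 0 rose (median -0.21), and 3 fell without the 3 arrays. The share of cilium genes that fell without the 3 arrays was near that over all features.

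Falls outnumbered rises in the blood endothelial list and the pericyte and fibroblast list, but not in the collagen and matrix lists. Of 36 measured blood endothelial genes 8 fell and 1 rose (median -0.24), with 9 and 1 without the 3 arrays. Lyve1, a hyaluronan receptor of lymphatic and some lung capillary vessels, was at 4427, 4121, 3290 and 4592 untreated and at 1310, 1186, 2068 and 1470 challenged, a difference of -1.44 (SE 0.17). Cdh5, the cadherin of endothelial junctions, fell by 0.63. Of 21 measured pericyte and fibroblast genes 5 fell and 2 rose (5 and 2 without the 3 arrays), the rises at a share near that over all features. Among them Pdgfra, a growth factor receptor, was lower by a difference of -0.79 and the surface sialomucin Cd34 higher by 1.13. Collagens rose in 4 of 21 and fell in 3 (median 0.25), against 6 and 2 without the 3 arrays (median 0.40). The fibrillar chains Col3a1 and Col1a2 rose by 1.04 and 0.85. Another probe of Col3a1 differed by 0.53 and did not pass (limma adjusted p = 0.063 with every probe tested). Col3a1 was at 785 to 1015 untreated and at 1633, 2431, 1447 and 2401 challenged. Of 31 measured matrix protease and matricellular genes 5 rose and 3 fell, the falls at a share near that over all features, and 9 rose and 4 fell without the 3 arrays. The inhibitor Timp1 was at 380 to 531 untreated and at 874, 2209, 931 and 2111 challenged, a difference of 1.62 (SE 0.27), while Timp3 fell by 0.66 and Thsd4, a microfibril-associated protein, fell by 1.88.

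Genes of the respiratory chain were higher in part. Of 57 measured subunits of complexes I, II, III and V 17 rose and 0 fell (median 0.25), but without the 3 arrays 8 rose and 1 fell (median 0.10), and without challenged array 1 alone 10 rose. Of 24 measured cytochrome c oxidase subunits 4 rose and 0 fell, and without the 3 arrays 2 rose and 3 fell. The mean of the complex I, II, III and V list was 0.36, 0.08, 0.38 and 0.17 above the untreated mean on challenged arrays 1 to 4, highest on the arrays with muscle RNA, and the part of muscle in this was not tested. Ndufb10 of complex I rose by 0.78, and by 0.88 without the 3 arrays. Among 23 measured hypoxia and glycolysis genes 3 rose and 4 fell, with 1 and 5 without the 3 arrays. Egln3, an oxygen-sensing hydroxylase, went from 29.9 to 74.5 untreated to 147 to 321 challenged, a difference of 1.62, and Epas1, hypoxia-inducible factor 2 alpha, fell by 1.04. Of 47 measured cytosolic ribosomal proteins 4 rose and 1 fell (median 0.07), with 4 and 2 without the 3 arrays, the rises at a share near that over all features.

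The remaining lists held few calls or small numbers of members. Of 14 measured acute phase genes 2 rose, Saa3 and Il6, and 4 fell, with 3 and 1 without the 3 arrays. Il6, a cytokine, was at 13.8, 11.3, 5.74 and 11.2 untreated, all below background, and at 21.7, 32.7, 18.4 and 52.3 challenged, at least 1.23-fold higher. Like Il4, it entered the test only through signal on arrays other than the untreated wild-type ones. Of 27 measured genes of glutathione and oxidant defence 4 rose and 4 fell (2 and 5 without the 3 arrays), with Gstm1, a glutathione transferase, lower by a difference of -1.04. Of 17 measured smooth muscle genes 1 rose and 1 fell, with 1 and 3 without the 3 arrays. Of 7 measured natural killer and cytotoxic genes 1 rose, Klrg1, an inhibitory receptor, by 0.59, and 1 rose without the 3 arrays. Of 10 measured lymphatic endothelial genes 1 rose and 3 fell, with 0 and 3 without the 3 arrays. Of 7 measured red blood cell genes 4 rose, and 2 without the 3 arrays. The globin gene Hbb-b2 was at 25.6 to 48.8 untreated and at 166, 37.8, 117 and 144 challenged, and it did not pass without the 3 arrays (adjusted p = 0.143).

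Markers of other tissue passed the test as well, and their direction depended on the arrays. Of 22 measured skeletal muscle markers 6 rose, and 3 rose and 1 fell without the 3 arrays. Acta1 was not above background on any untreated array and was at least 19.99-fold higher (adjusted p = 0.0384), while Krt13 did not pass (adjusted p = 0.0581). Of 23 measured squamous markers 6 rose, and 3 without the 3 arrays. The measured members include 7 squamous and 6 muscle markers above background on no untreated wild-type array. Those markers entered the test through signal on other arrays, so the counts of rises partly follow from the filter. Of 14 measured adipocyte markers 1 rose and 1 fell with all arrays, and 0 rose and 9 fell without the 3. Adipoq had a difference of 0.72 (SE 0.98, adjusted p = 0.648) with all arrays and of -1.74 (adjusted p = 0.000854) without the 3. Of 29 measured cardiomyocyte genes of the pulmonary veins 1 rose with all arrays, and 1 rose and 7 fell without the 3. The largest rises lost without the 3 arrays were Lor, Rptn, Pvalb, Tnnt1, Lce1c and Tmod4, genes of cornified epithelium and muscle.

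**Figure D5:**
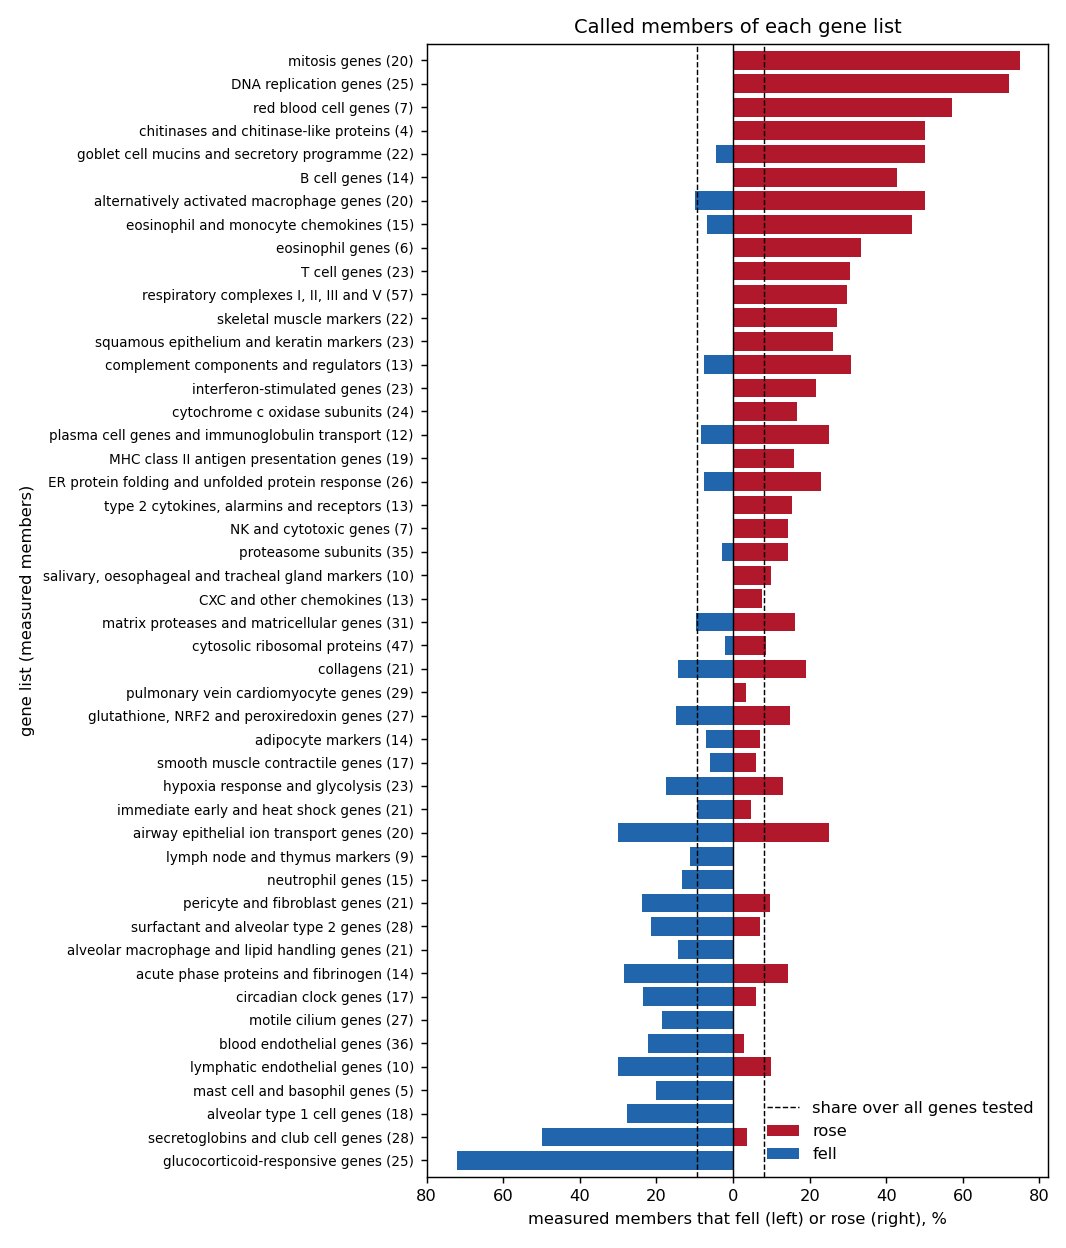
Share of the measured members of each gene list that rose (right, red) or fell (left, blue) on challenge in wild type, in percent, with the number measured in brackets and dashed lines at 8.19% and 9.43%, the shares over all features. The DNA replication and mitosis lists reach 18 of 25 and 15 of 20 on the right, and the glucocorticoid list 18 of 25 on the left. All lists were chosen with earlier results of these data known.

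Whether the response differed in mice lacking Cox4i2 was tested as an interaction, the challenge difference in mutants minus that in wild type. No feature passed (0 of 11962, 0%), while 1434 (12%) had an unadjusted p under 0.05 in limma's test. The wild-type and mutant log2 differences stood side by side at 4.77 and 2.58 for Chil4 (interaction adjusted p = 0.324), at 3.46 and 1.17 for Ccl24 (0.196), at 3.34 and 0.94 for Arg1 (0.25) and at 2.74 and 2.37 for Muc5ac (0.852). For Fkbp5 they were -2.74 and -3.18 (0.657). A p that misses the threshold does not show that the genotypes respond alike. Without the 3 arrays 34 features passed (0.284%), and the wild-type change was the larger in 33 of them, 23 higher and 10 lower on challenge. They included Ccl24, at 4.25 in wild type and 0.89 in mutants (adjusted p = 0.0275), Timp1, at 2.23 and 0.67, and Mcm5 and Tk1 of DNA replication, at 1.21 and 0.12 and at 1.36 and 0.14. In some the signs were opposite, such as Adipoq of fat, at -1.74 and 0.19. The part of other tissue in these differences was not tested. Challenged wild type then rests on 2 arrays and challenged mutants on 3.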

How the data were processed

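The deposited table holds linear intensities for 25697 probes, to which the authors' background subtraction and quantile normalisation were inferred from the values: 23.5% to 23.8% of each array lies below 0 and all arrays share 1 highest value. The submitters' processing notes list GenomeStudio 2011.1 without saying what it did. A non-normalised table with 16 signal and 16 detection columns was not used, since none of its columns can be tied to a sample.

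The normexp model of limma 3.58.1 (R 4.3.3) was applied with an offset of 16. Probes above background on at least 4 of 16 arrays were kept (15869), and the probe of highest mean stood for each gene (11014 with a symbol). Genes above background on no untreated wild-type array passed this filter through other arrays, so their rises partly follow from it. Other probes of a gene may differ from the one tested. The background limit is the percentile 95 of noise with an SD of 10.2. The limma model had 1 coefficient per group over 16 arrays, with 12 residual and 4.75 prior degrees of freedom, and tests were 2-sided. No slide or scan date is given. The members and 48 gene lists were chosen with earlier results of these data known. Named genes are the 12 largest rises and falls passing in both fits without overlap, up to 5 members of smallest p per list, tissue markers, and the 6 largest calls gained or lost per direction without the 3 arrays with other tissue. The code was tested on simulated data. "At least" folds divide the brighter group's mean by the background limit (by the dim group's own signal where that is higher). Replicate numbers of untreated and challenged arrays showed no pairing.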

Additional observations from a re-analysis of the deposited data

Results flagged for a closer look

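Values of 1 array stood apart from the other 3 of its group in 15 of 248 gene and group combinations (6.05%), where the gap to the nearest array, as a share of the group's range on the log2 scale, exceeded Dixon's 95% critical value. About 1 in 20 such groups would be marked by chance. None of these values was weighed for a cause.

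Among untreated lungs, array 3 was high for Birc5 (137, the others 90.4 to 97.0) and low for Klf9 (4533, the others 7449 to 7973) and for the muscle gene Tmod4 (43.1). Array 2 was low for Clca1 (371, the others 3299 to 4873) and for Scin (33.5, the others 122 to 139), and high for Timp3 (10902, the others 9125 to 9163). Array 1 was low for Lrat (57.7, the others 128 to 144) and for Cdh5 (792, the others 1034 to 1074). Array 4 was low for Cd34 (63.2, the others 86.0 to 87.7).

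Among challenged lungs, array 3 was low for Fxyd4 (203, the others 576 to 676) and high for Pxdc1 (418, the others 221 to 244) and Sftpb (4540, the others 3682 to 3749), each time the array nearest to the untreated level. Array 1 was high for Clec10a (447, the others 321 to 340) and low for Klrg1 (78.4, the others 94.7 to 97.3). Array 2 was low for Cdkn1a (847, the others 1034 to 1046).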

How the results depend on the processing

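The count of 2108 changed features went to 1220 (567 higher, 653 lower) when only the 8 wild-type arrays entered the fit, which has fewer arrays to estimate the spread. It lay between 1636 and 2563 under the other 8 settings tried: without the 3 arrays with other tissue, with the skeletal muscle score as a covariate, an offset of 50, a floor of 16 in place of the background model, no filter on dim probes, a filter of 8 arrays, every probe tested, and the replicate block. Leaving out 1 wild-type array at a time gave 1418 to 2513 features, 639 to 1257 higher and 779 to 1256 lower. The lowest values came without untreated array 2. Replicate numbers did not pair the arrays (correlations of deviations -0.0679 to 0.0369), and with the replicate number as a block 1986 features passed. The interaction count of 0 became 34 without the 3 arrays and stayed at 0 with the replicate block. It became 3 without untreated wild-type array 3 (range 0 to 3 when 1 wild-type array was left out). No mutant array was left out alone, and the cause of these changes was not tested. Of 113 named genes that passed, 87 passed under every setting in which they were tested, and 100 passed without the 3 arrays. Adipoq turned from 0.72 to -1.74 without the 3 arrays and to -1.85 with the muscle covariate. The mitosis list went from 15 to 9 rises with only the 8 wild-type arrays. Signal over background limits dim genes such as Il4 and Il13, where differences below the noise cannot be seen.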
